A study of Mus musculus with 4 samples.

Results

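The proto-oncogenes Myc, Mycn and Mycl, their shared partner Max and the transcription factor Myb were followed in mouse blood stem and progenitor cells. These 5 genes were taken by name from the 32285 genes counted in each of 4 single-cell libraries. The cells came from bone marrow and had been sorted as CD45.2+Lin-Sca1+Kit+, the LSK fraction, which contains blood stem cells and multipotent progenitors. Collection took place 10 weeks after transplantation. Each genotype had 1 library, labelled as control, Mll3 deleted, Mll4 deleted and Mll3/4 deleted. Mll3 and Mll4 are histone methyltransferases encoded by Kmt2c and Kmt2d. The labels used here do not give the Cre line or other means of deletion, the strain, or the number of mice behind a library. Each library also carried counts of 6 antibodies, among them CD150, CD48 and CD135, which divide LSK cells into stem and progenitor fractions. On GRCm38, Myc lies on chromosome 15 (61985391 to 61990374, plus strand), Mycn on chromosome 12 (12936093 to 12941914, minus strand) and Mycl on chromosome 4 (122995652 to 123002485, plus strand). Max lies on chromosome 12 (76937269 to 76962201, minus strand) and Myb on chromosome 10 (21124935 to 21160984, minus strand).

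Myc proteins bind DNA only as a pair with Max, at the E-box sequence, and are known for driving ribosome production, nucleotide synthesis and cell growth. Mycn is a close relative of Myc with overlapping function, and in mouse marrow it is known to be expressed in stem cells, where Myc and Mycn can partly replace each other. Mycl is the third family member and is known from dendritic cells. Myb is a separate DNA-binding factor that immature blood cells need in order to expand, and its level normally drops as they mature.

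No replicate stands against which a difference between libraries could be set, so nothing was tested and no p-value is given. A level is the number of unique molecular identifiers (UMIs) of a gene summed over the cells of a library, per 1000000 UMIs (CPM). Intervals are 95% limits for counting error only (exact Poisson for levels, exact Clopper-Pearson for shares, exact binomial for ratios), and differences between animals could be larger. A log2 ratio compares a library with the control after adding 0.5 UMIs, and a gene was counted as past the threshold at 2-fold. Only genes whose mean level was 20 CPM or more, called tested genes below, were counted in this way. Of the 5 genes, 4 reached this level and Mycl did not, so ratios of Mycl are given as values only. In sums over mixed cells, fewer cells that express a gene and less RNA per cell cannot be told apart, and for that reason levels are also given within surface-protein gates and within cells that share marker genes. The chemistry counts 1 tag per captured molecule at its 3-prime end, so levels are compared between cells and libraries for 1 gene and not between genes.

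The promoters are shown for Mycn, which differed most between libraries among the members above the 20 CPM minimum. They are also shown for Max, the partner of all Myc proteins, whose window holds an E-box. RefSeq windows on GRCm38.p6, each 300 bases long around a start site, were found for Mycn, Mycl, Max and Myb. No entry was matched for Myc. Both strands were searched for the E2F-type sequence TTTGGCGC, a site type of cell cycle genes, and for the E-box CACGTG. The E2F-type sequence occurred in 169 of 32851 windows of this length (0.514%) and the E-box in 2349 (7.15%). The window of Mycn held 2 E2F-type matches and no E-box, that of Max held 1 E-box and no E2F-type match, and those of Mycl and Myb held neither. The stretch before the gene is given for Mycn (chr12:12941915-12942086, minus strand, 172 bases) and the 30 bases around the E-box for Max (chr12:76962234-76962263, minus strand), both 5′ to 3′ with the matches in capitals:
Mycn: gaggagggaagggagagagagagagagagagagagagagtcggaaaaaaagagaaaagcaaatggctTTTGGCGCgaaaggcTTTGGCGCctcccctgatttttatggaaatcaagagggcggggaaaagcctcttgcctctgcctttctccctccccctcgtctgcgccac
Max: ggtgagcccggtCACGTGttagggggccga
The E2F-type matches of Mycn lie close together upstream of the gene, and a match describes letters and not binding. Guanine and cytosine made up 56.7% of the window of Mycn, 64.7% of that of Max, 64.0% of that of Mycl and 75.0% of that of Myb.

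Cells were barcodes with 1000 genes or more and no more than 10% mitochondrial UMIs, 4748 to 7274 per library, with 50792614 to 120700343 UMIs per library. This kept 7274 of 7682 barcodes in the control, 6101 of 6560 under the Mll3 label and 4748 of 5136 under the Mll3/4 label. Under the Mll4 label it kept only 4793 of 7702, and values of that library describe the kept barcodes. Median UMIs per cell were 14454 in the control, 15381 under the Mll3 label, 21400 under the Mll4 label and 8920 under the Mll3/4 label. Pairs of libraries shared 9 to 22 barcodes. Kmt2c was at 68.9 CPM in the control, 35.3 under the Mll3 label, 61.3 under the Mll4 label and 42.3 under the Mll3/4 label. Kmt2d was at 24.6, 21.6, 22.6 and 25.4 CPM in the same order and so was not clearly lower where an Mll4 label stood. A 3-prime tag outside a deleted part says nothing about the deletion, and libraries are named by their labels for this reason. Ly6a, the gene of Sca1, and Kit were present in all 4 libraries, at 93.4 to 255 and 215 to 362 CPM. Yet 2 libraries stood apart in content. Under the Mll3/4 label, 4651 of 4748 cells (98.0%) were rich in B-lineage transcripts, against 0.192% in the control, and the 8 stem cell markers summed to 125 CPM against 669. Under the Mll4 label 44.4% of cells were rich in no screened marker list of a mature or committed cell type, against 96.5% in the control. Erythroid and megakaryocyte lists were not screened, so cells rich in these markers can be among cells called rich in no marker list. Erythroid markers summed to 936 CPM under the Mll4 label, against 25.8 in the control, 31.8 under the Mll3 label and 195 under the Mll3/4 label. Megakaryocyte markers summed to 71.0 CPM under the Mll4 label, against 118 in the control. The largest screened sets of the library labelled Mll4 were rich in granulocyte-monocyte (997 cells), mast (623) and dendritic (594) markers. Such a class is a range and not a cell type: over the 4 libraries, 110 cells lay within 2-fold below the limit for B-lineage markers and 215 within 2-fold below that for granulocyte-monocyte markers.

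Mycn varied far more between the libraries than the other tested members. It was at 28.1 CPM in the control (27.1 to 29.0, 3349 UMIs), at 68.9 (67.3 to 70.5) under the Mll3 label, at 15.3 (14.6 to 16.0) under the Mll4 label and at 0.925 (0.680 to 1.23, 47 UMIs) under the Mll3/4 label. The intervals of the 4 libraries did not overlap, with the library labelled Mll3 highest and the library labelled Mll3/4 lowest. Against the control the log2 ratios were 1.30 (1.24 to 1.36), -0.88 (-0.96 to -0.79) and -4.91 (-5.37 to -4.51). Of the 4 tested members, only Mycn was past 2-fold under the Mll3 label, where 1.55% of 6125 tested genes were past it in either direction, and under the Mll3/4 label, where 16.5% were. None of the 4 was past 2-fold under the Mll4 label, against a background of 8.26%. At 1.5-fold Mycn was also past the threshold under the Mll4 label and Myc under the Mll3/4 label, where 25.1% and 32.0% of tested genes were (6.11% under the Mll3 label). The direction of Mycn under the Mll4 label depended on which cells were counted. Weighting the gates to control shares gave 0.03, and leaving out the cells rich in committed or mature markers gave 0.18 on the log2 scale. Under the Mll3 label the gate weighting lowered the ratio to 0.52, under the 2-fold threshold. Under the Mll3/4 label the ratio stayed between -5.87 and -3.30 in all alternatives run.

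**Figure D1:**
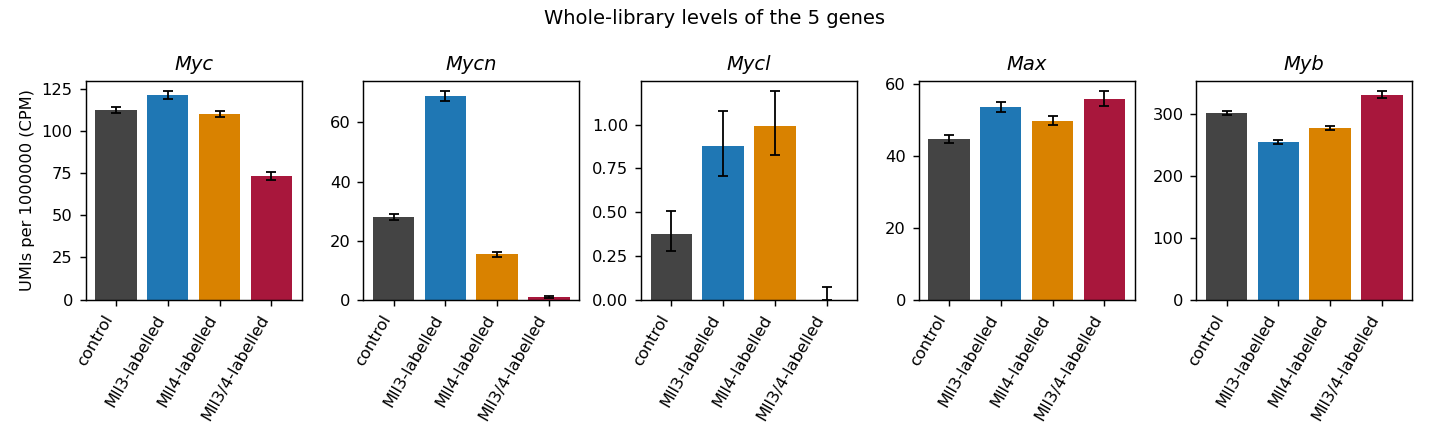
Level of each gene in each library, in CPM on linear axes that start at 0. Bars are sums over 1 library and error bars are exact 95% Poisson limits for counting error. Mycn ranges from 0.925 under the Mll3/4 label to 68.9 under the Mll3 label, while Max stays between 44.8 and 55.9.

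The share of cells with a Mycn UMI followed the same order. After each cell was thinned to 3000 UMIs, which left out 14, 17, 134 and 33 cells, a Mycn UMI was found in 8.68% of control cells (8.04 to 9.35). The share was 17.0% (16.1 to 18.0) under the Mll3 label, 3.43% (2.93 to 4.00) under the Mll4 label and 0.106% (0.0344 to 0.247) under the Mll3/4 label. Without thinning the shares were 28.4%, 44.2%, 14.4% and 0.590%. Cells rich in granulocyte-monocyte markers, taken as cells that should lack Mycn, gave a measure of stray RNA. In them the thinned share was 0% of 101 control cells, 0.917% of 109 cells labelled Mll3 and 0.509% of 982 cells labelled Mll4, at median depths of 26403, 26715 and 45385 UMIs. Under the Mll4 label it was 0.894% of 559 mast-marker, 0.826% of 121 macrophage-marker and 0% of 149 mature B or plasma-marker cells. Their median depths were 5227, 7587 and 23640 UMIs. The shares over all cells of the control and the libraries labelled Mll3 and Mll4 lay above all those values. The share under the Mll3/4 label lay within their range, and too few granulocyte-monocyte-marker cells were found there to measure stray RNA in that library. Of its 5 thinned cells with Mycn, 4 were among the 91 cells rich in no marker list and 1 among 4618 B-marker-rich cells. Mycn UMIs per positive cell were higher than in the control under the Mll3 label, with a mean of 1.35 in thinned cells against 1.12 in the control. The mean was 1.26 on 160 cells under the Mll4 label and 1.40 on 5 cells under the Mll3/4 label.

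Mycn was concentrated in cells with high CD150 and low CD48, the surface pattern of blood stem cells. CD150 is the product of Slamf1 and marks stem cells with long-term activity, and CD48 marks progenitors that have left that state. In the control, Mycn was at 63.9 CPM (61.0 to 67.0) in the 2127 CD150-high CD48-low cells and at 16.9 (16.0 to 17.7) in the 5147 other cells. For the Mll3 label the levels were 118 (115 to 121) and 18.6 (17.5 to 19.8). For the Mll4 label they were 83.9 (78.8 to 89.2) and 7.67 (7.16 to 8.21). The excess in CD150-high CD48-low cells was thus 3.79-fold (3.54 to 4.06) in the control, 6.33-fold (5.92 to 6.78) and 10.9-fold (9.97 to 12.0). The library labelled Mll3/4 did not show it, with 0.536 CPM (0.312 to 0.858, 17 UMIs) in CD150-high CD48-low cells and 1.57 (1.06 to 2.25, 30 UMIs) in the others. CD150-high CD48-low cells made up 29.2% of the control. Under the labels Mll3, Mll4 and Mll3/4 they made up 52.4%, 9.93% and 64.7%. In the last of these libraries the surface pattern did not go with its own transcript. Slamf1 was at 1.71 CPM there, against 8.39 in the control. The median cell of that library had 37 CD150 counts, and median antibody counts were 853 against 1256 in the control. Without centring the CD150 threshold was 4.67 on the natural log scale, and that median cell lay below it. The 64.7% thus depends on the centring, and gate names in this library stand for centred surface signal only, here and below.

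Mycn was also compared within CD150-high CD48-low cells. The log2 ratio of Mycn to the control in these cells was 0.88 (0.81 to 0.96) under the Mll3 label and 0.39 (0.28 to 0.50) under the Mll4 label. Under the Mll3/4 label, where this gate depends on the centring, it was -6.86 (-7.68 to -6.22). Among all other cells the ratios were 0.14 (0.03 to 0.26), -1.14 (-1.26 to -1.01) and -3.40 (-3.99 to -2.90). The higher Mycn of the library labelled Mll3 therefore lay mainly in CD150-high CD48-low cells, which were both more frequent and richer in Mycn there. In UMIs, they gave 1816 in the control and 6324 under the Mll3 label, and the other cells 1533 and 973. For the Mll4 label the level was lower in the other cells only, but both groups gave fewer Mycn UMIs, 1012 and 833, as CD150-high CD48-low cells were rarer there.

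A split of each library into 5 equal bins by CD150 protein showed how gradual this was. In the control, Mycn went from 10.7 CPM in the lowest bin through 14.1, 19.0 and 36.2 to 68.6 in the highest. With the Mll3 label it went from 12.2 through 19.3, 42.8 and 96.0 to 182. The lowest bins of these libraries were near each other, and the distance grew with the bin number. Bins were cut within each library, so bins of the same number held unlike CD150. The median centred log ratio of CD150 in the highest bin was 0.88 in the control and 1.71 under the Mll3 label. At a like CD150 the levels were closer. Bin 4 under the Mll3 label (median 0.86) had 96.0 CPM, beside 68.6 in bin 5 of the control. Bin 3 (-0.29) had 42.8, beside 36.2 in bin 4 of the control (-0.35). With the Mll4 label the lower 4 bins were flat, between 4.77 and 5.72 CPM, and the highest was at 53.1. No bin of the library labelled Mll3/4 was above 1.82 CPM. Myc ran the other way in the control, from 125 CPM in the lowest bin to 90.8 in the highest, and under the Mll3 label, from 147 to 86.0.

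**Figure D2:**
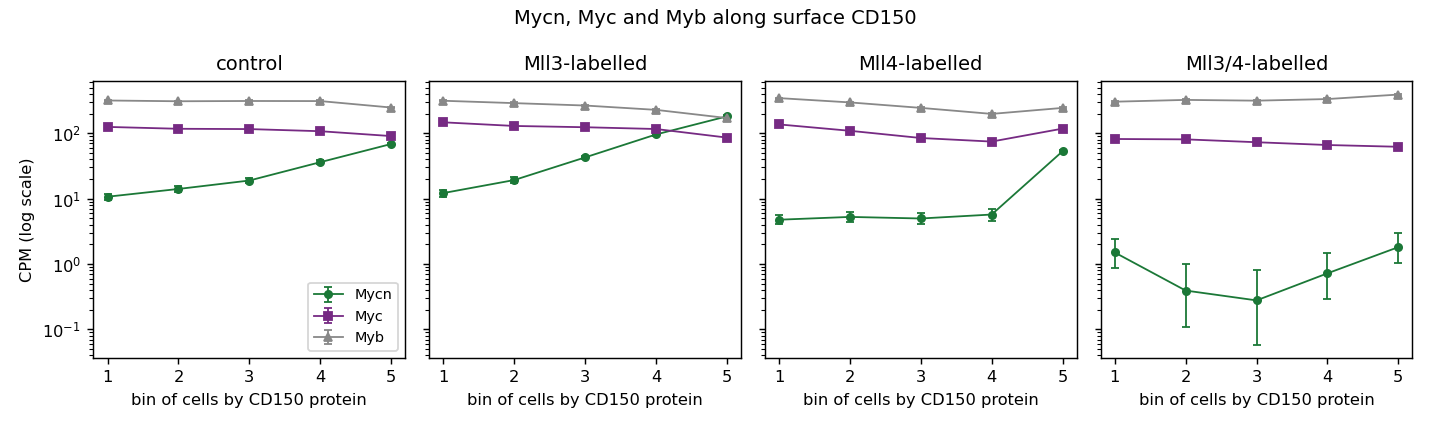
Levels of Mycn, Myc and Myb (CPM, log scale) in 5 equal bins of each library's cells, from the lowest to the highest CD150 protein (centred log ratio). Points are sums over the cells of a bin and bars are 95% Poisson limits. Bins are cut within each library, so bins of the same number hold unlike CD150 in different libraries. Mycn climbs from 10.7 to 68.6 in the control and from 12.2 to 182 under the Mll3 label, and is at 1.82 or less under the Mll3/4 label.

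Finer gates gave the same order in the control. Mycn was highest in the HSC gate (CD150+CD48-CD135-) at 64.0 CPM (61.0 to 67.1) and in CD150+CD135+ cells at 57.0 (45.5 to 70.5), whose intervals overlap. It was next in the MPP2 (30.9) and MPP1 (27.7) gates, whose intervals overlap as well. It was lowest in the MPP3 (13.5) and MPP4 (12.6) gates, again with overlapping intervals. MPP2 is the CD150+CD48+ fraction with a megakaryocyte and erythroid bias, MPP3 the CD48+ fraction with a myeloid bias, and MPP4 the CD135+ fraction with a lymphoid bias. Under the Mll3 label only the HSC gate (117 CPM, log2 ratio 0.87) and CD150+CD135+ cells (124 CPM, log2 ratio 1.11) lay clearly above the control. MPP1, MPP2 and MPP4 had intervals that include 0, and MPP3 lay below the control (log2 ratio -0.28, -0.49 to -0.09). Under the Mll4 label the HSC gate was higher (87.6 CPM, log2 ratio 0.45, 0.34 to 0.57) and the MPP3 gate was lower (3.46 CPM, log2 ratio -1.96, -2.16 to -1.77). Of the 3402 cells in that MPP3 gate, 66.5% were rich in markers of committed or mature cells, against 5.24% in the control. Without such cells the MPP3 level was 9.81 CPM and the log2 ratio -0.55 (-0.76 to -0.35). The MPP4 gate (log2 ratio -0.50, -0.93 to -0.09) and CD150+CD135+ cells (-0.82, -1.37 to -0.29) were also lower under that label, and without marker-rich cells their ratios were 0.55 (0.11 to 0.96) and 0.05 (-0.51 to 0.58).

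**Figure D3:**
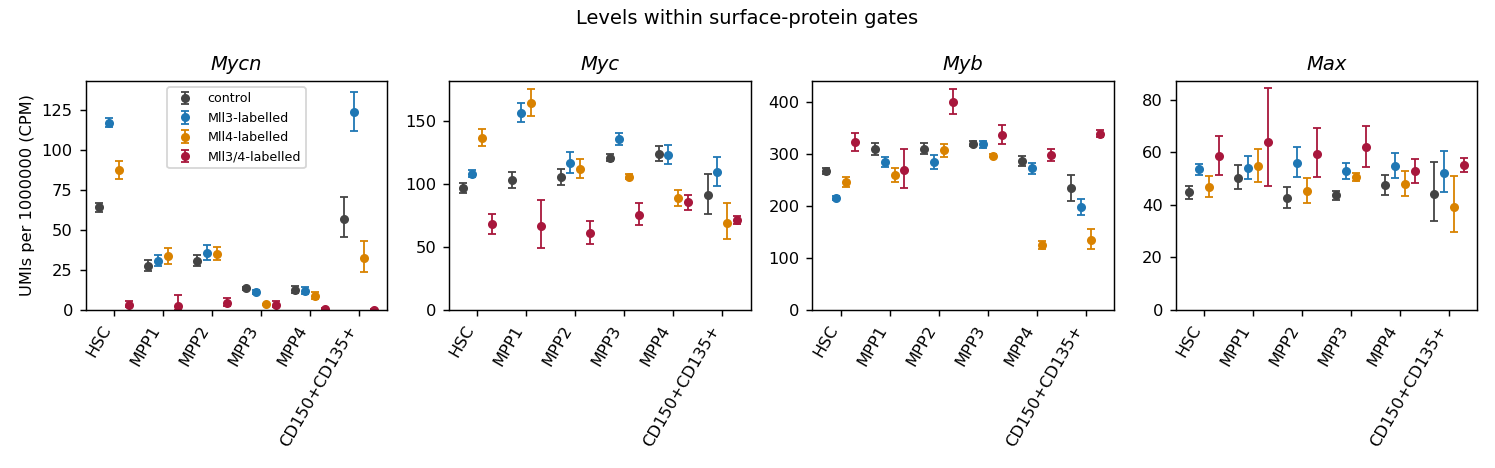
Levels of Mycn, Myc, Myb and Max (CPM) in 6 surface-protein gates of the 4 libraries, with 95% Poisson limits for counting error. Mycn stands highest in the HSC and CD150+CD135+ gates of the library labelled Mll3 (117 and 124), and the Mll3/4-labelled points for Mycn lie at 4.27 or less in every gate.

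The balance between Mycn and Myc shifted with these surface proteins. Mycn made up 39.9% (38.5 to 41.3) of the summed Myc and Mycn UMIs in CD150-high CD48-low cells of the control and 12.6% (12.0 to 13.2) in its other cells, a difference of 27.3 percentage points (25.8 to 28.9). For the Mll3 label the shares were 52.1% and 12.1%, a difference of 40.0 points (38.9 to 41.2). For the Mll4 label they were 38.9% and 6.65%, a difference of 32.2 points (30.3 to 34.2). The direction held in these 3 libraries with other antibody scales and thresholds, and the sizes ranged from 23.2 points in the control to 41.6 under the Mll3 label. Under the Mll3/4 label the shares were 0.760% and 1.95%. That difference of -1.19 points rests on 47 Mycn UMIs and changed sign with the antibody scale, to 5.34 points without centring. Myc itself was lower in CD150-high CD48-low cells than in others in the control (96.4 against 117 CPM) and the library labelled Mll3 (108 against 135). It was higher in them under the Mll4 label (132 against 108). With cells rich in committed or mature markers left out, the HSC gate of that library (138 CPM) stood among its other gates, at 169 in MPP1, 122 in MPP2, 139 in MPP3, 150.1 in MPP4 and 98.7 in CD150+CD135+ cells.

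Mycn and Myc were not exclusive of each other in single cells. In thinned control cells a Myc UMI was found in 27.1% of 630 cells with Mycn (23.7 to 30.8) and in 26.4% of 6630 cells without it. With the Mll3 label the shares were 27.1% and 28.2%. With the Mll4 label they were 33.8% (26.5 to 41.6) and 19.1% (18.0 to 20.3). Among CD150-high CD48-low cells of that library they were 35.3% and 30.5%, with overlapping intervals.

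The 47 Mycn UMIs of the library labelled Mll3/4 sat in few cells. A set of 22 cells with at most 2 UMIs of the 8 B-lineage markers, a limit chosen after the values had been seen, held 29 of the 47 UMIs in 13 cells. Mycn was at 51.4 CPM (34.4 to 73.8) in these cells and at 0.358 (0.212 to 0.566) in the other 4726. Myc was at 122 CPM (95.1 to 155) against 72.8 (70.5 to 75.2). The 22 cells carried no barcode shared with another library, and 6 of them were CD150-high CD48-low. Their stem cell markers summed to 459 CPM against 121. Their median depth was 24969 UMIs against 8908. Median counts were 2955 against 102 for CD48 and 73 against 37 for CD150. What these cells are was not tested. Cells of the B-marker class in this library had 12 Mycn UMIs among 4651 cells, or 0.247 CPM (0.128 to 0.432). In the 130 cells of that class under the Mll3 label, Mycn was at 2.26 CPM (0.910 to 4.66). Mycn was thus low in B-marker-rich cells of both libraries, and no Mycn UMI was found in the 14 such cells of the control, with an upper 95% limit of 12.1 CPM.

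In 3 of the 4 libraries Mycn was lower in cells that expressed many cell division genes. Thinned cells with at least 3 UMIs of 16 division genes were set beside cells with none. In the control, Mycn was at 16.4 CPM in the former and 44.0 in the latter, a log2 ratio of -1.43 (-1.55 to -1.31). The ratio was -1.71 (-1.79 to -1.63) under the Mll3 label and -1.33 (-1.49 to -1.18) under the Mll4 label. It had the other sign under the Mll3/4 label, at 1.36 (0.35 to 2.61), with 1.58 CPM against 0.595, on 31 and 10 UMIs. The 47 Mycn UMIs of that library lay in 28 cells, and the interval does not allow for several UMIs in 1 cell. Cells in division are rarer in the stem cell gate, so the same was computed within CD150-high CD48-low cells, where the ratios of the first 3 libraries were -0.98, -1.25 and -0.94. Myc differed less in these cells, with ratios of -0.52, -0.43 and -0.36, and the ratios of Myb were 0.01, 0.02 and -0.01, with intervals that include 0. In the library labelled Mll3/4 the ratios within this gate were 1.47 (-0.10 to 3.66) for Mycn, 0.05 for Myc and 0.10 (0.04 to 0.17) for Myb. Cells with division genes were deeper (22143 against 11232 median UMIs in the control), and the part of depth was not tested.

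Summed over a library, Myc was near the control in the libraries labelled Mll3 and Mll4 and lower under the Mll3/4 label. It was at 112 CPM (111 to 114) in the control, 121 (119 to 124) under the Mll3 label, 110 (108 to 112) under the Mll4 label and 73.4 (71.1 to 75.8) under the Mll3/4 label. Only the last of these stood well below the others. The log2 ratios were 0.11 (0.08 to 0.15), -0.03 (-0.06 to 0.00) and -0.62 (-0.67 to -0.56), a 1.53-fold lower level in the last case and short of 2-fold. For the library labelled Mll4 no direction can be given, as alternatives ranged from -0.44 to 0.31. Among cells rich in no marker list Myc was higher there, at 141 CPM (138 to 144) against 114 (112 to 116) in the control. That set was not screened for erythroid markers. Its level was low in mast-marker (34.5), dendritic-marker (36.2), mature B or plasma-marker (29.7) and macrophage-marker cells (23.0) of that library.

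Within gates, Myc under the Mll3/4 label was between 60.8 and 85.2 CPM, with log2 ratios of -0.79 in MPP2 to -0.35 in CD150+CD135+ cells. All 6 intervals lay below 0. B-marker-rich cells of the library labelled Mll3 had a like level, 68.2 CPM (59.3 to 78.1), beside 71.6 (69.3 to 74.0) in those of the library labelled Mll3/4. The 91 cells of the library labelled Mll3/4 that were rich in no marker list had 119 CPM (105 to 135), near the 114 of the control. The libraries labelled Mll3 and Mll4 were above the control in MPP1, with 156 CPM (log2 ratio 0.60, 0.49 to 0.72) and 164 (0.68, 0.54 to 0.81) against 103.

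Mycl was scarce and came mostly from dendritic-marker cells. It had 45 UMIs in the control (0.377 CPM), 93 under the Mll3 label (0.878), 120 under the Mll4 label (0.994) and none under the Mll3/4 label. Dendritic-marker cells held 36 of the 45, 83 of the 93 and 109 of the 120 UMIs. In these cells Mycl was at 44.7 CPM (31.3 to 61.9), 64.4 (51.3 to 79.8) and 11.7 (9.61 to 14.1), and in cells rich in no marker list at 0.0614, 0.0831 and 0.0198. The number of dendritic-marker cells was 64, 115, 594 and, under the Mll3/4 label, 2. Against the limit that a count of 0 allows (3 UMIs per library), Mycl was at least 6.4-fold lower under the Mll3/4 label than in the control. With all marker-rich cells but those of the B lineage left out, the log2 ratio under the Mll4 label changed from 1.39 to -1.15, on 1 UMI. For the dendritic-marker class, 385 cells of the 4 libraries lay within 2-fold below the limit of its marker share and 196 within 2-fold above. Its median cell also carried 13.9 UMIs per 1000 of the mature B or plasma list and 1.74 of the macrophage list.

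Max, without which Myc proteins do not bind DNA, spanned 1.25-fold from the lowest to the highest library, the least of the members (1.30-fold for Myb). It was at 44.8 CPM (43.6 to 46.0) in the control, 53.6 (52.2 to 55.0) under the Mll3 label, 49.9 (48.6 to 51.1) under the Mll4 label and 55.9 (53.9 to 58.0) under the Mll3/4 label. The log2 ratios of 0.26, 0.16 and 0.32 were above 0 in all alternatives run, with limits of 0.11 and 0.43. Max did not follow CD150: the log2 ratio of CD150-high CD48-low to other cells was 0.00 in the control, -0.01, -0.12 and -0.08, each with an interval that includes 0. Across marker classes of at least 100 cells under the Mll4 label it ranged from 17.6 CPM in mature B or plasma-marker cells to 79.2 (71.1 to 88.0) in mast-marker cells.

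Summed over a library, Myb was close to the control in every library. It was at 301 CPM (298 to 305) in the control, 255 (252 to 258) under the Mll3 label, 278 (275 to 280) under the Mll4 label and 332 (327 to 337) under the Mll3/4 label. The log2 ratios were -0.24, -0.12 and 0.14. Under the Mll4 label the alternatives ranged from -0.52, with equal weight per cell, to -0.02. In thinned cells, a Myb UMI was found in 55.5% of control cells (54.3 to 56.6) and 48.8% under the Mll3 label. The share was 38.7% (37.3 to 40.1) under the Mll4 label and 53.1% under the Mll3/4 label. Granulocyte-monocyte-marker cells held 57.0% of the Myb UMIs and 39.7% of all UMIs under the Mll4 label. Along CD150, Myb was lower in the highest bin than in the lowest, 248 against 318 CPM in the control and 171 against 315 under the Mll3 label. An antisense gene, Gm26577, lies within Myb and had 60 to 278 UMIs per library beside 16850 to 35963 for Myb.

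Gates and marker classes spread Myb more than the libraries did. In the control the HSC gate had 267 CPM (261 to 274) and the MPP3 gate 319 (315 to 324). Within the HSC gate the library labelled Mll3 was lower (215 CPM, log2 ratio -0.32) and the library labelled Mll3/4 higher (322 CPM, log2 ratio 0.27). The lowest gate was MPP4 of the library labelled Mll4, at 125 CPM (118 to 133) against 287 in the control, a log2 ratio of -1.19. There, 59.6% of the gated cells were rich in committed or mature markers against 6.40% in the control. Without them Myb was at 202 CPM and the log2 ratio was -0.56 (-0.68 to -0.45). Among classes of at least 100 cells, those rich in granulocyte-monocyte markers had the most Myb, 479 CPM (454 to 505) in the control, 470 (446 to 494) under the Mll3 label and 399 (393 to 404) under the Mll4 label. Macrophage-marker cells had 23.0 CPM and mature B or plasma-marker cells 25.3 under the Mll4 label. B-marker-rich cells had 240 CPM (223 to 257) under the Mll3 label and 336 (331 to 341) under the Mll3/4 label, the latter with shallower cells (8826 against 23196 median UMIs).

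**Figure D4:**
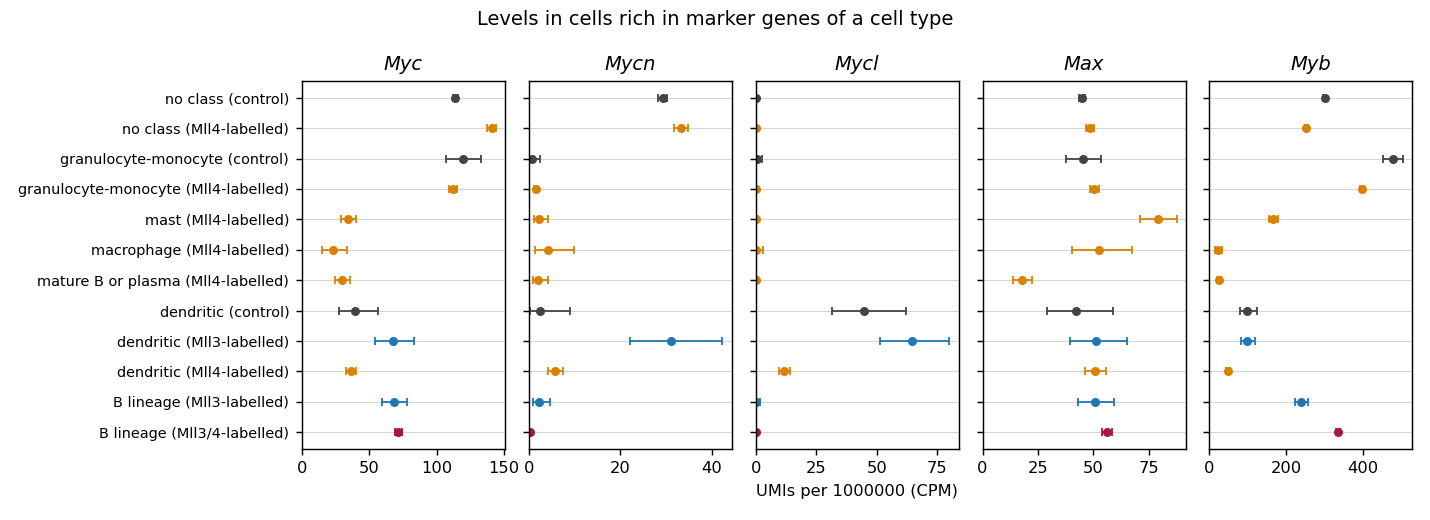
Levels of the 5 genes (CPM, 1 linear axis per gene) in cells rich in marker genes of a cell type, by library (dark grey control, blue Mll3-labelled, orange Mll4-labelled, red Mll3/4-labelled). Points are sums over cells and bars are 95% Poisson limits. Mycl is seen in dendritic-marker cells, Mycn in cells of no class and in dendritic-marker cells of the library labelled Mll3 (31.0), and Myb is highest in granulocyte-monocyte-marker cells.

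The genes around the members were read from 5 lists with 67 genes, of which 55 were tested. None was past 2-fold under the Mll3 label, where 1.09% of all tested genes were higher and 0.457% lower. Under the Mll4 label 4 were higher and 4 lower (backgrounds of 4.98% and 3.28% of all tested genes), and under the Mll3/4 label 4 were higher and 14 lower (6.07% and 10.5%). Among the 5 tested genes of the Max network, Mlxip, a glucose-sensing factor that pairs with Mlx, was higher under the Mll3/4 label (17.9 CPM in the control, 55.5 there). The median log2 ratios of this list were 0.10, 0.31 and 0.25, beside 0.10, -0.13 and -0.11 over all tested genes.

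The growth genes that Myc is known to drive leaned low under the Mll3/4 label. All 24 tested genes had a ratio below 0 there, with a median log2 ratio of -0.66 and a range of -2.35 to -0.23, where 41.2% of all tested genes were above 0. Past 2-fold were 4 of the 24, where 10.5% of all tested genes were lower by 2-fold or more. They were Ccnd2, a cyclin of the G1 phase (213 CPM in the control, 41.9 there), and Srm, which makes spermidine (106 and 47.2). The others were Cad, which starts pyrimidine synthesis (40.3 and 18.1), and Ppan, a ribosome assembly factor (66.5 and 31.3). The part that the B-marker content of this library has in these ratios was not tested. The medians were 0.20 under the Mll3 label and -0.03 under the Mll4 label, where the RNA helicase Ddx21 was higher (128 and 287 CPM). By gate, the median under the Mll3/4 label lay between -0.85 in MPP2 and -0.36 in MPP1. Over all tested genes the median in these gates lay between -0.13 and -0.08. None of the 24 genes was above 0 in 5 of its 6 gates, and 5 were in MPP1, which held 68 cells. The share of all tested genes above 0 was not computed by gate. For the Mll4 label the median was 0.16 in the HSC gate and -0.64 in MPP4, beside -0.08 and -0.24 over all tested genes. In that MPP4 gate 59.6% of cells were rich in committed or mature markers, against 6.40% in the control.

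Genes that act on Myc or with Myb differed one by one. Pim1, a kinase that stabilises Myc, was at 213 CPM in the control and 52.7 under the Mll3/4 label. Tfap4, a Myc target and E-box factor, was at 31.9 and 13.4. Skp2, part of a ubiquitin ligase that acts on Myc, was at 20.5 and 46.3. Only these 3 of 10 tested stability and cofactor genes were past 2-fold there, and only Bin1 was under the Mll4 label (62.3 and 26.4). Over all tested genes, 16.5% were past 2-fold in either direction under the Mll3/4 label and 8.26% under the Mll4 label. Of 5 tested genes in the list of the Myb family and cofactors, only Mybbp1a was past 2-fold, at 138 CPM in the control and 66.6 under the Mll3/4 label. The acetyltransferase genes Crebbp and Ep300 had log2 ratios of 0.43 and 0.15 there.

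Genes known as Myb targets differed widely between library sums while the sums of Myb did not. With the Mll4 label the granule genes Mpo (174 CPM in the control, 3780 there) and Elane (124 and 2000) and the transcription factor Ets1 (9.92 and 37.4) were higher. Lmo2 (722 and 338), Meis1 (185 and 79.6) and Hoxa9 (78.5 and 31.4), all factors of stem and progenitor cells, were lower. Under the Mll3/4 label Ets1 (235) and the lymphoid factor Ikzf1 (99.2 and 236) were higher. Lower there were Lmo2 (10.0), the progenitor surface protein Cd34 (332 and 5.18), Mpo (11.3), Elane (9.73), the survival gene Bcl2 (74.6 and 20.4), Meis1 (55.6) and Flt3, the gene of CD135 (64.0 and 23.5). Many of these genes also mark the cell types by which the libraries differed: granulocyte-monocyte markers summed to 1020 CPM in the control, 10300 under the Mll4 label and 40.3 under the Mll3/4 label. The part of cell content in these ratios was not tested.

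**Figure D5:**
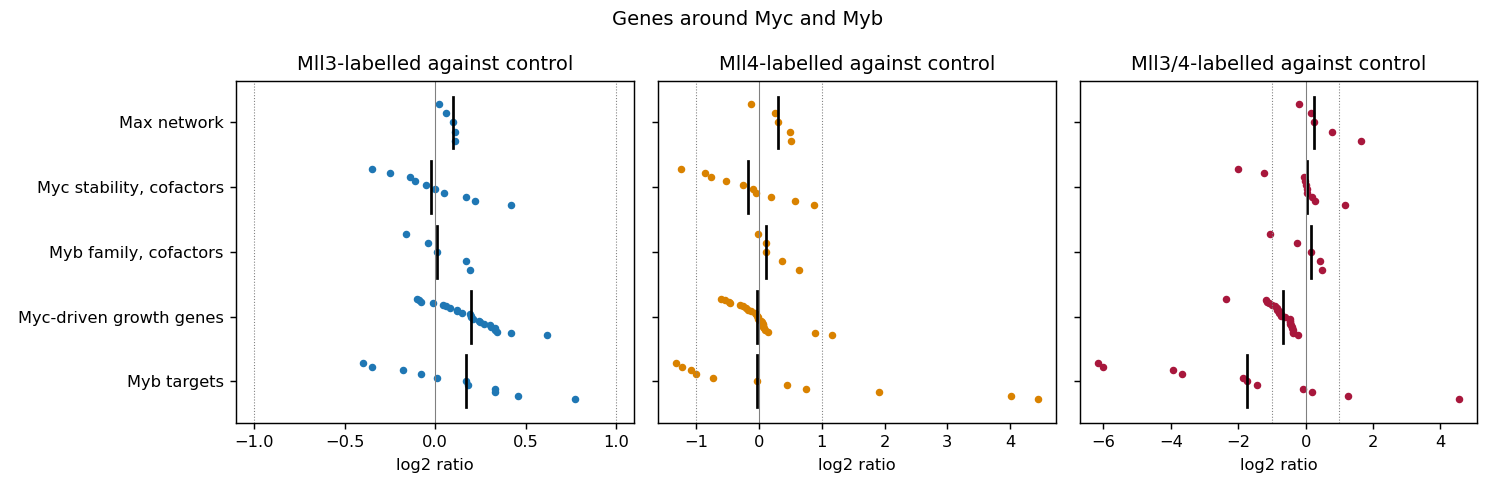
Log2 ratio to the control of each tested gene (points) of 5 lists around Myc and Myb, 1 panel per library, with the list median as a black bar and dotted lines at 2-fold (axes differ between panels). The growth genes have a median of 0.20 under the Mll3 label and -0.66 under the Mll3/4 label, and the Myb targets spread from -6.17 to 4.56 in the latter.

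Genes with a pattern like that of each member were found over 22 sums of a library and a gate with at least 100 cells, by Pearson correlation of log2(CPM + 1). The sums share libraries and depth, so the values are descriptions. Closest to Mycn were Uba7 (0.969), the enzyme that activates Isg15, Pdzk1ip1 (0.965), a gene known from stem cells, and Car2 (0.961), a carbonic anhydrase. Over the 17 sums without the library labelled Mll3/4 the values were 0.984, 0.924 and 0.919. Closest to Myc were Paics (0.906), an enzyme of purine synthesis, Rnmt (0.889), which caps messenger RNA, and Eif2a (0.886), with 0.801, 0.694 and 0.755 without that library. Over the 22 sums the likeness was weaker for Max (Cebpg 0.813, Ppp4r2 0.808) and for Myb (4921524J17Rik 0.865, Acin1 0.833, Hint1 0.776). Without that library the values were 0.722 and 0.783 for Max and 0.877, 0.804 and 0.779 for Myb. Those of Myb were then not below those of Myc.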

How the data were processed

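The authors deposited raw counts of UMIs per gene and of antibody tags per cell barcode for 4 libraries. Per the submitters' processing notes, Cell Ranger 6.1.1 and the mm10 build were used, and per the labels' protocols the chemistry was 10x Genomics 3-prime version 3.1. How barcodes were chosen is not given in the sources used here. Coordinates are from GENCODE M21 on GRCm38, in which 32158 of 32285 gene identifiers (99.6%) were found.

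Groups were taken from the sample titles. UMIs were summed over barcodes of 1000 or more genes with a mitochondrial share up to 10% (Python 3.11.15, scipy 1.17.1). Doublets were kept: Scrublet (scanpy 1.11.5) called 1, 1, 169 and 0 cells by its own threshold in the control and in the libraries labelled Mll3, Mll4 and Mll3/4, too few to have worked in 3 of them. Leaving out the highest scores instead was an alternative. For the gates, counts of the 6 antibodies were centred per cell on the natural log scale. The thresholds, shared by all libraries, were crossings of 2 fitted Gaussians: -0.72 for CD150, 1.71 for CD48 and -0.9 for CD135.

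A cell was called rich in a marker list when at least 3 of its genes had at least 2 UMIs each and the list made up at least 0.5% of its UMIs (0.1% for T or innate lymphoid cells). Erythroid and megakaryocyte lists were summed per library but not used for these classes. The limits were set after the data had been seen. For shares of cells, each cell was thinned to 3000 UMIs. TMM factors came from edgeR 4.0.16 (R 4.3.3), as an alternative scaling with no test. The computation was tested on simulated data. Named genes were the 5 members, list genes past 2-fold in at least 1 library, and the 3 most similar genes per member, of which 1 is not reported here; Crebbp and Ep300 were added after their values had been seen. The members and lists were chosen with earlier results of these data known.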

Additional observations from a re-analysis of the deposited data

How the results depend on the processing

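No paired analysis was possible because each genotype had 1 library. Of the recomputed log2 ratios of members, 108 moved by less than their counting interval, 54 moved by more with the direction kept or with no direction called, and 3 reversed. Those were Mycn under the Mll4 label with gates weighted to control shares (0.03) and without cells rich in committed or mature markers (0.18), and Mycl there without such cells (-1.15); fewer cells entered the latter pair, and the cause was not otherwise tested. The number of members past 2-fold became 0 under the Mll3 label with gates weighted, 1 under the Mll4 label with equal weight per cell or a 1.5-fold threshold, and 2 under the Mll3/4 label at 1.5-fold, where Myc joined Mycn. The difference in the Mycn share of Myc plus Mycn UMIs was 30.6 points in the control with uncentred log antibody counts and 23.2 with counts per 1000. Under the Mll3 label it was 37.4 with counts per 1000, 41.6 with the upper 25% of CD150 and lower 50% of CD48, 41.3 without the highest Scrublet scores and 41.6 in thinned cells. Under the Mll4 label it was 40.5 uncentred, 37.4 with thresholds per library, 26.1 with counts per 1000 and 26.4 with these upper and lower shares. Under the Mll3/4 label it was 5.34 uncentred, -2.33 with counts per 1000, 0.0207 with these upper and lower shares and -0.122 in thinned cells. List genes past 2-fold were 1 under the Mll3 label at a minimum of 5 CPM, and 5 and 9 under the Mll4 and Mll3/4 labels at 100 CPM, where fewer genes were tested. TMM shifted all ratios by -0.10, 0.04 and 0.07, and median-of-ratios by up to 0.11. Leaving out all marker-rich cells but B-lineage ones and leaving out shared barcodes were chosen after the data had been seen. The library labelled Mll3/4 was the shallowest, and 3 UMIs there correspond to 0.0591 CPM.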

Other observations

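Among list genes under the 20 CPM minimum, several had large values under the Mll3/4 label (chosen after their values had been seen). Pvt1, a noncoding RNA gene that neighbours Myc and is known to take part in its regulation, was at 5.10 CPM in the control, 11.4 under the Mll3 label, 5.21 under the Mll4 label and 33.4 under the Mll3/4 label, where Myc was lowest. Mxd3, a Max partner that represses Myc targets and is known from dividing cells, was at 12.7, 18.1, 7.80 and 40.3 CPM. Mnt, another repressing partner of Max, was at 23.9, 22.8, 20.2 and 11.6 CPM. Mybl1, a relative of Myb, was at 2.24, 3.17, 1.96 and 5.65 CPM, and Mybl2, the relative tied to cell division, at 14.5, 17.1, 15.7 and 11.2. Mycn in dendritic-marker cells was at 31.0 CPM (22.2 to 42.3) under the Mll3 label, against 2.48 (0.301 to 8.97) in the control and 5.69 (4.26 to 7.44) under the Mll4 label. In granulocyte-monocyte-marker cells, the cells taken as a measure of stray RNA, Mycn was at 10.0 CPM (6.82 to 14.2) on 31 UMIs under the Mll3 label, against 0.700 in the control and 1.48 under the Mll4 label. Stray RNA and expression in these cells were not told apart.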
